A study of Homo sapiens with 6 samples.

Results

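The NF-kB family genes examined here are 10 genes that encode the 5 Rel subunits of the transcription factor NF-kB and 5 proteins that hold it back. They were taken by name from a table of 23619 genes: NFKB1, NFKB2, REL, RELA and RELB for the subunits, NFKBIA, NFKBIB and NFKBIE for the IkB inhibitors, and TNFAIP3 and TNIP1 for the ubiquitin-linked inhibitors. All 10 names matched 1 row each. RNA-seq was done on the human bladder cancer line T24 in 2 groups of 3 libraries. The Caba-780 group was exposed for 24 h to 3.84 µM of Caba-780, a near-infrared fluorescence imaging drug, and the Control group had no treatment. The labels mention no vehicle, and they do not tell whether replicates came from separate cultures, so each p-value measures the spread between these libraries only. The question posed by the design is how the expression profile differs between drug-exposed and control cells.

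NF-kB acts as pairs of Rel subunits, which IkB proteins keep in the cytoplasm of resting cells. In the canonical pathway the IKK kinases mark IkB proteins for degradation, and pairs such as RELA with p50 enter the nucleus. In the non-canonical pathway the NFKB2 precursor is processed to p52, which acts with RELB. Several of these genes are themselves known targets of NF-kB, among them NFKBIA and TNFAIP3, and so form feedback loops.

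Promoter stretches are shown first because they let the same kind of site be seen in genes whose RNA levels behaved differently. RefSeq windows (GRCh38.p14) of 250 bases before to 50 after a transcription start were found for 8 of the 10 genes, with 14 windows in all. RELB and NFKBIE are named only. The NF-kB consensus, searched on both strands, stood in 7 of the 8 genes, all but RELA, and in 7.09% of the 27305 genes with a RefSeq window. By window, it stood in 8 of the 14, against 5.91% of 35116. Each line below is written 5′ to 3′ on the strand of the gene, with the bases of the match in capitals.
TNFAIP3, chr6:137867188-137867217, plus strand: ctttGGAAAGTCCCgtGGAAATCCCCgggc
NFKB1, chr4:102501300-102501329, plus strand: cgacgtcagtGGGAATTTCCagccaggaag
REL, chr2:60881518-60881546, plus strand: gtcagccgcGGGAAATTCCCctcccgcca
NFKB2, chr10:102395674-102395703, plus strand: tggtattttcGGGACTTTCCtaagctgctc
NFKB2, chr10:102394462-102394490, plus strand: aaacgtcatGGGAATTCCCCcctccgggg
TNIP1, chr5:151081057-151081086, minus strand: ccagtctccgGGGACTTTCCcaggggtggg
NFKBIA, chr14:35404796-35404855, minus strand: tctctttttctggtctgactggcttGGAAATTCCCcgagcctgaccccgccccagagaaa
NFKBIB, chr19:38899916-38899951, plus strand: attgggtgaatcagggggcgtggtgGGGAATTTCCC

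The printed match began 67 bases before the RefSeq start in TNFAIP3, 49 in NFKB1, 47 in REL, 42 in TNIP1, 81 in NFKBIA and 28 in NFKBIB. The NFKB2 matches printed began 21 bases before one start and 107 before another. NFKB2 also held a match 176 bases before the first of these starts and one 78 bases before the other, which are not printed. By the GENCODE gene bounds given below, only the printed NFKBIA stretch lay wholly outside its gene. The printed stretches of TNFAIP3, NFKB1, REL, NFKB2 and TNIP1 overlapped GENCODE exons at least in part. For the NFKB2 start with the match at 107 bases, the bases after the start stood in no GENCODE transcript of the gene. TNFAIP3 held a pair of matches side by side, both on the opposite strand. The letters GGGACTTTCC of NFKB2 and TNIP1 stood in 0.191% of all windows, and the letters GGGAATTTCC of NFKB1 in 0.145%. A match describes letters only. No binding was measured, and the absence of a match in the RELA windows says only that these letters are not there.

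The libraries held between 14591234 and 15983035 reads in genes. Control replicate 3 (Control 3) stood apart: 13627 genes were detected in it, compared with 19467 to 20308 in the other 5 libraries. Only 638 of its genes held 1 to 9 reads, compared with 5636 to 6100 elsewhere. The changes of the 10 genes are therefore given with all 6 libraries and without Control 3. The epithelial keratins KRT7, KRT8 and KRT18 were present in every library, while the epithelial markers CDH1, TP63 and UPK2 were at or near 0. EPCAM was at 0 in the other 5 libraries and at 2.33 CPM, the reads of a gene scaled to a common library total, in Control 3. Over the urothelial and epithelial markers, 12 of 16 were in the table, and their summed level was 770 to 1029 CPM in Caba-780 libraries and 494 to 805 CPM in Control libraries. Summed mesenchymal markers (VIM, CDH2 and ZEB1) were at 668 to 725 CPM in Caba-780 libraries and 688 to 1262 CPM in Control libraries, with Control 3 highest. Markers of leukocytes (CD14 and LYZ), endothelium (PECAM1) and fibroblasts (DCN and LUM) summed to at most 0.546, 0.380 and 1.01 CPM. In bulk RNA, fewer cells of a kind and less RNA per cell cannot be told apart.

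In each of the 10 genes all 3 Caba-780 libraries lay above all 3 Control libraries, which was also so in 17.9% of the 13847 genes tested. With all 6 libraries, 3 of the 10 passed the test as higher (NFKB1, NFKBIE and TNFAIP3) against 0.744% of all genes tested, and 0 passed as lower, against 0.26%. The test was limma across all genes with Benjamini-Hochberg adjustment at 0.05, on log2 of normalized counts + 1. By unadjusted p under 0.05, 8 of the 10 were higher and 0 lower, against 10.1% and 6.90% of all genes tested. DESeq2 gave 8 higher and 0 lower after adjustment, against 5.42% and 3.51%. Leaving out any one library other than Control 3 left 0 of the 10 called by limma, with log2 changes of TNFAIP3 between 3.84 and 4.12. Those fits called at most 0.00735% of all genes tested as higher and 0% as lower. Without Control 3, limma called 8 of the 10 higher, all but RELA and NFKBIA, against 17.2% of the 13708 genes tested, and 0 lower, against 15.2%. The median log2 change of the 10 genes was 1.83 with 6 libraries and 1.81 without Control 3, beside 0.10 and -0.02 over all genes tested. In the authors' deposited table the adjusted p was under 0.05 for the same 8 genes, all higher. It was so for 2.35% of its genes in that direction. That share is over all 23619 genes without the filter of the limma test, so it is not on the same footing as the shares above.

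**Figure D1:**
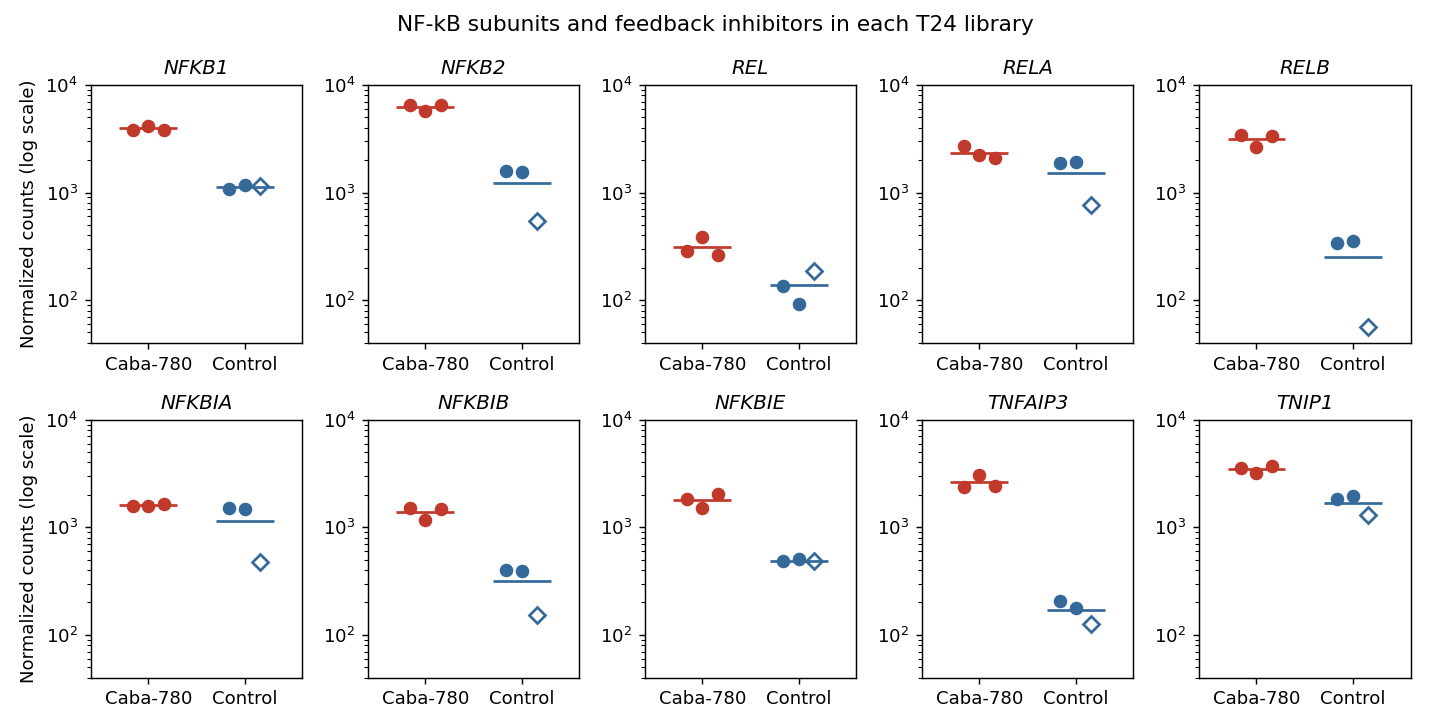
Normalized counts (log scale) of the 10 genes in each library, with Caba-780 in red and Control in blue, horizontal bars at the group means (n = 3 each) and an open diamond for Control 3. Every red point lies above every blue point of its gene; RELB, NFKB2 and NFKBIA show a low diamond, whereas in NFKB1 and NFKBIE it lies with the other Control points.

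TNFAIP3 encodes A20, a ubiquitin-editing enzyme that limits NF-kB signalling downstream of tumour necrosis factor receptors. It had 2360, 3079 and 2429 normalized counts in Caba-780 libraries, against 206, 177 and 125 in Control libraries (6:137867188-137883312, plus strand). The groups were far apart, and Control 3 was the lowest library. The means were 2623 ± 396 and 169 ± 40.8 (SD, n = 3 each), and the log2 change was 3.96 ± 0.24 (SE; limma adjusted p = 0.0118). Without Control 3 it was 3.76 ± 0.15. In GENCODE v29, 95 exonic bases of TNFAIP3 overlap the antisense gene AL357060.1, which had at most 8.49 normalized counts. TNIP1 encodes a ubiquitin-binding partner of A20. It had 3572, 3211 and 3733 normalized counts in Caba-780 libraries, against 1838, 1944 and 1310 in Control libraries (5:151029945-151093577, minus strand). The groups did not overlap, but its log2 change of 1.06 ± 0.20 missed the threshold with 6 libraries (limma adjusted p = 0.0860). Without Control 3, TNIP1 rose by 0.89 ± 0.13 (limma adjusted p = 1.1e-05).

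The precursor subunits NFKB1 and NFKB2 give rise to p50 and p52. NFKB1 had 3842, 4191 and 3831 normalized counts in Caba-780 libraries, against 1081, 1166 and 1158 in Control libraries (4:102501329-102617302, plus strand). Replicates lay close together in both groups, Control 3 included. The means were 3955 ± 205 and 1135 ± 47.1 (SD, n = 3 each), and the log2 change was 1.80 ± 0.15 (limma adjusted p = 0.0165). For NFKB2, which supplies the partner of RELB, the values were 6451, 5672 and 6506 in Caba-780 libraries and 1569, 1537 and 544 in Control libraries (10:102394110-102402529, plus strand). Control 3 was well below the other Controls. The log2 change of NFKB2 was 2.50 ± 0.42 with 6 libraries (limma adjusted p = 0.0616), and without Control 3 it rose by 2.00 ± 0.13 (limma adjusted p = 4.0e-12).

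Of the subunits with a transactivation domain, RELB had the largest log2 change in both comparisons. It had 3447, 2630 and 3380 normalized counts in Caba-780 libraries, against 342, 356 and 56.4 in Control libraries (19:45001430-45038198, plus strand). Even the highest Control library lay far below the lowest Caba-780 library. Its log2 change was 4.03 ± 0.71 with 6 libraries (limma adjusted p = 0.0683) and 3.16 ± 0.15 without Control 3 (limma adjusted p = 2.3e-15), the smaller value being the one without the low Control 3. RELA, the main canonical subunit, had 2723, 2222 and 2094 normalized counts in Caba-780 libraries, against 1897, 1916 and 759 in Control libraries (11:65653596-65663094, minus strand). Controls 1 and 2 came close to the Caba-780 libraries. Its log2 change was 0.73 ± 0.39 with 6 libraries (limma adjusted p = 0.390) and 0.29 ± 0.14 without Control 3 (limma adjusted p = 0.117; 0.0381 when scaled by library totals). REL, the subunit best known from lymphocytes, was the least abundant, with 286, 389 and 261 normalized counts in Caba-780 libraries and 136, 91.6 and 185 in Control libraries (2:60881521-60931610, plus strand). Here Control 3 was the highest Control. The log2 change of REL was 1.21 ± 0.32 with 6 libraries (limma adjusted p = 0.154), and it rose by 1.45 ± 0.21 without Control 3 (limma adjusted p = 5.5e-06). In GENCODE v29, 43.3% of the exonic bases of REL are shared with AC010733.2 on the same strand, so its count is uncertain to that extent.

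The IkB inhibitors did not move alike. NFKBIA (IkB alpha), the rapidly resynthesized inhibitor, had 1585, 1583 and 1645 normalized counts in Caba-780 libraries, against 1503, 1486 and 478 in Control libraries (14:35401511-35404749, minus strand). Apart from Control 3, all libraries were within a narrow range. Its log2 change was 0.65 ± 0.45 with 6 libraries (limma adjusted p = 0.507), and without Control 3 it was 0.10 with a 95% interval of -0.18 to 0.38 (limma adjusted p = 0.598). NFKBIB (IkB beta) had 1506, 1181 and 1482 normalized counts in Caba-780 libraries, against 404, 390 and 153 in Control libraries (19:38899700-38908893, plus strand). The groups were well apart. Its log2 change was 2.25 ± 0.40 with 6 libraries (limma adjusted p = 0.0704), and NFKBIB rose by 1.80 ± 0.15 without Control 3. It shares 40 exonic bases with SIRT2 on the opposite strand. NFKBIE (IkB epsilon) had 1827, 1507 and 2019 normalized counts in Caba-780 libraries, against 481, 507 and 482 in Control libraries (6:44258166-44265788, minus strand). The 3 Control values were nearly equal. NFKBIE rose by 1.85 ± 0.18 with 6 libraries (limma adjusted p = 0.0233) and by 1.84 ± 0.15 without Control 3.

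**Figure D2:**
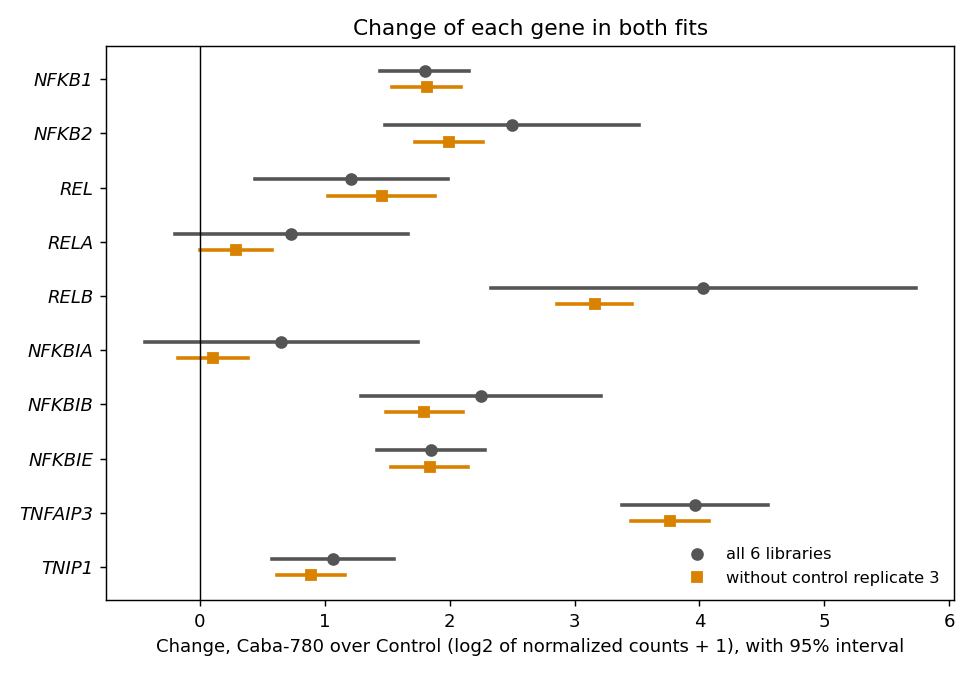
Log2 change of each gene, Caba-780 over Control, with its 95% interval from limma, for all 6 libraries (grey circles) and without Control 3 (orange squares). The intervals are wider with 6 libraries for every gene, while the central values of NFKB1 and NFKBIE nearly coincide.

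Control 3 bears unevenly on these genes. Its level over the mean of Controls 1 and 2 was 0.161 for RELB, 0.320 for NFKBIA, 0.350 for NFKB2, 0.386 for NFKBIB and 0.398 for RELA. These 5 of the 10 genes were under 0.5, or 50%, against 30.1% of all genes tested. Among tested genes with a mean of at least 100 normalized counts in Controls 1 and 2, as all 10 had, it was 23.7%. The ratio was 0.974 for NFKBIE, 1.03 for NFKB1 and 1.63 for REL. The 10 genes had a median ratio of 0.527, all genes tested had 0.884, and those with at least 100 normalized counts had 0.955. What made Control 3 low in these genes was not tested.

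**Figure D3:**
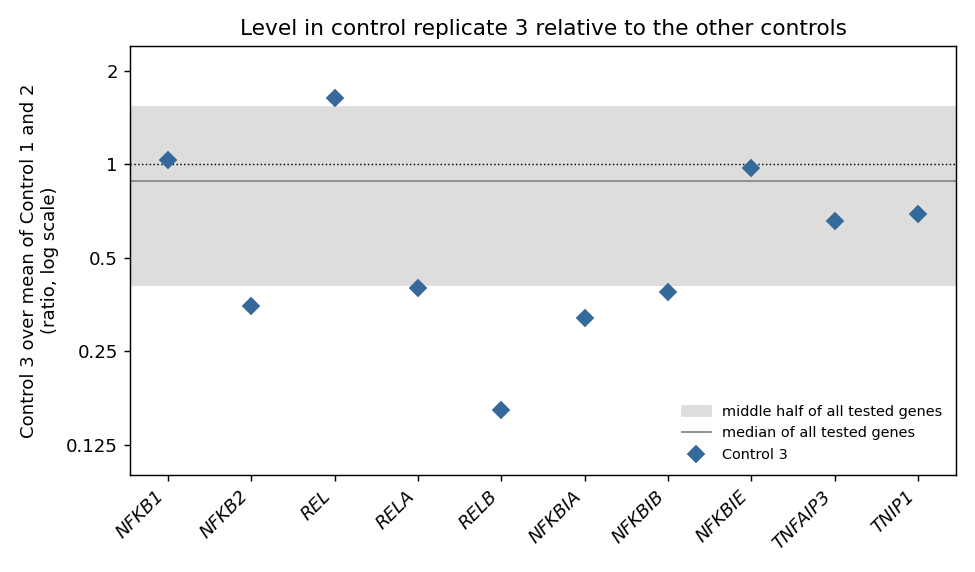
Level in Control 3 over the mean of Controls 1 and 2 (log scale) for each gene, with the median of all tested genes (grey line, 0.884) and the range from their 25th to 75th percentile (grey band). RELB, NFKBIA, NFKB2, NFKBIB and RELA lie below the band, and REL lies above it.

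Levels per length, as CPM per kilobase of gene length, show how the make-up of the family differed. The summed level of the 5 subunits was 259, 225 and 249 CPM per kb in Caba-780 libraries, against 64.8, 64.9 and 29.0 in Control libraries. RELB made up 30.6, 26.8 and 31.1% of that sum in Caba-780 libraries, against 11.4, 11.7 and 3.89% in Control libraries. RELA made up 13.4, 12.6 and 10.7% in Caba-780 libraries, against 35.0, 34.9 and 29.1% in Control libraries. Neither share overlapped between the groups. NFKB2 held the largest share in every Caba-780 library, at 38.8, 39.1 and 40.5%, and 35.2, 34.1 and 25.4% in the Control libraries. In Control 3, NFKB1 held the largest share, at 38.7%. Among the 3 IkB genes, NFKBIA made up 33.0, 37.9 and 32.8% of the sum in Caba-780 libraries, against 63.7, 63.2 and 44.4% in Control libraries.

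**Figure D4:**
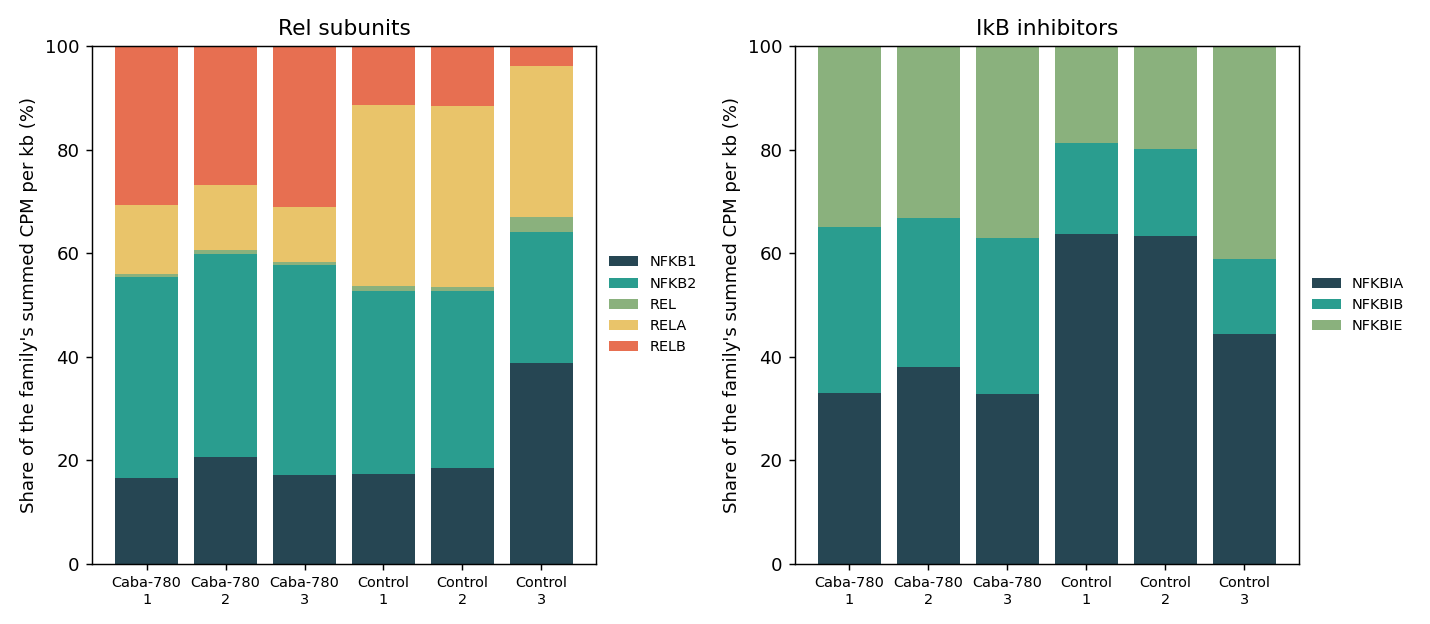
Share of each gene in its family's summed CPM per kb in each library, for the 5 Rel subunits (left) and the 3 IkB inhibitors (right). The RELB band is wider and the RELA band narrower in the Caba-780 libraries, and the NFKBIA band is narrower there.

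By mean level per length in Caba-780 libraries, NFKB2 came first at 96.4 ± 7.46 CPM per kb and RELB next at 72.3 ± 10.6 (SD, n = 3). NFKBIE (48.1), NFKBIA (47.0), NFKB1 (44.0), TNIP1 (42.1) and NFKBIB (41.6) followed, and the library values of neighbours in this run overlapped. TNFAIP3 had 36.1 ± 5.36 and RELA 29.9 ± 4.32, also overlapping, and REL was apart at 1.65 ± 0.36 CPM per kb. The order was different in Controls 1 and 2, where NFKBIA led with a mean of 40.9 CPM per kb. RELA (22.7), NFKB2 (22.5) and TNIP1 (21.2) came next, and RELB (7.48), TNFAIP3 (2.46) and REL (0.561) were last.

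Ratios of 2 genes within a library, taken on normalized counts + 1, hardly depend on the scaling between libraries. RELB over RELA was 1.27, 1.18 and 1.61 in Caba-780 libraries, against 0.181, 0.186 and 0.0755 in Control libraries. NFKB2 over RELA was 2.37, 2.55 and 3.11 in Caba-780 libraries, against 0.827, 0.802 and 0.717 in Control libraries. Both ratios were higher in every Caba-780 library than in any Control library. NFKB1 over RELA was 1.41, 1.89 and 1.83 in Caba-780 libraries, against 0.570, 0.609 and 1.53 in Control libraries, so here Control 3 fell within the range of the Caba-780 libraries. In the exact two-sided permutation test, RELB, NFKB2, NFKBIB, NFKBIE and TNFAIP3 over RELA each gave p = 0.1, adjusted to 0.2 over the 10 ratios computed. This is the smallest p that 3 against 3 libraries allow. The log2 ratio of NFKBIA to RELA differed by -0.08 (exact p = 0.6, adjusted 0.6). Without Control 3 the smallest p is 0.2, and the difference in log2 ratio was 2.87 for RELB, 1.71 for NFKB2 and 1.52 for NFKB1 over RELA. For NFKB2 over NFKB1 it was 0.70 with 6 libraries (exact p = 0.2, adjusted 0.286) and 0.18 without Control 3 (exact p = 0.4, adjusted 0.4).

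Genes that act upstream of or beside these proteins were read from lists of the pathway. Of 11 tested genes of the IKK complex and its upstream kinases, 0 were called with 6 libraries by limma. Of all genes tested, 0.744% were called higher and 0.26% lower in that comparison. Without Control 3, 2 of the 11 rose and 1 fell, which is near the 17.2% and 15.2% of all genes tested. Those that rose were IKBKE (0.59 ± 0.20, with 0.50 ± 0.23 for 6 libraries) and CHUK (0.39 ± 0.15, with 0.04 ± 0.32 for 6 libraries), which encode IKK-family kinases. The TAK1-binding protein gene TAB1 fell (-0.65 ± 0.16, with -0.37 ± 0.30 for 6 libraries). RIPK1, a kinase of the tumour necrosis factor receptor complex, had a log2 change of 0.42 with 6 libraries and 0.34 without Control 3 (limma adjusted p = 0.281 and 0.0634). IKBKG, the regulatory IKK subunit, had 333, 219 and 171 normalized counts in Caba-780 libraries, against 135, 204 and 15.8 in Control libraries, so the groups overlapped. Its log2 change was 1.59 with 6 libraries and 0.48 without the low Control 3 (limma adjusted p = 0.437 and 0.132). IKBKG has a near-identical pseudogene copy, so its reads are uncertain. Of 12 tested ubiquitin-editing genes, 0 were called with 6 libraries, against the same 0.744% and 0.26% of all genes. Without Control 3, 3 of the 12 rose and 1 fell, beside the same 17.2% and 15.2% of all genes. Those that rose were the deubiquitinase gene CYLD (1.78 ± 0.15), TNIP2 (0.55 ± 0.16) and OTUD7B (0.45 ± 0.15), with 1.51 ± 0.29, 0.78 ± 0.26 and 0.41 ± 0.16 for 6 libraries. The RNase gene ZC3H12A fell (-1.20 ± 0.17), with -0.25 ± 0.77 for 6 libraries.

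CYLD, which removes ubiquitin chains from NF-kB signalling proteins, had 2024, 2863 and 2332 normalized counts in Caba-780 libraries, against 744, 645 and 1226 in Control libraries. Control 3 was the highest Control and still below all Caba-780 libraries. Of the 8 genes for IkB degradation, 0 were called with 6 libraries, against 0.744% of all genes tested higher and 0.26% lower. Without Control 3, 0 of the 8 rose, against 17.2% of all genes, and 1 fell, against 15.2%. The gene that fell was RBX1, a cullin ligase subunit (-0.55 ± 0.16, with -0.70 ± 0.24 for 6 libraries). The other genes of that list shown by the rule had log2 changes without Control 3 of -0.25 for UBE2R2 and -0.19 for BTRC (limma adjusted p = 0.155 and 0.353), and of -0.42 and -0.48 with 6 libraries. Of 9 tested genes for other IkB proteins and cofactors, 0 were called with 6 libraries, against the same 0.744% and 0.26% of all genes. Without Control 3, 1 of the 9 rose, the acetyltransferase gene EP300 (0.41 ± 0.15, with 0.29 ± 0.22 for 6 libraries). Another 1 fell, NFKBIZ, an atypical nuclear IkB (-0.92 ± 0.16, with -0.41 ± 0.45 for 6 libraries). These counts stood beside 17.2% higher and 15.2% lower of all genes. CREBBP had 0.37 and RPS3 -0.34 without Control 3 (limma adjusted p = 0.0719 and 0.0808), and 0.57 and -0.38 with 6 libraries.

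Textbook targets of NF-kB outside the 10 genes formed the last list, chosen like the others with earlier results of these data known. It named 44 genes, of which those absent or below the filter were not tested. Of 37 tested with 6 libraries, 6 (BCL2A1, CCL2, LTA, LTB, MMP9 and TNFRSF9) reached the minimum of 10 normalized counts in no Control library, so they entered the test only through the Caba-780 group and are not counted. Of the other 31 targets, 5 rose (PTX3, ICAM1, TRAF1, BIRC3 and CD83) and 0 fell, against 0.722% and 0.263% of all genes held to the same condition. Their median log2 change was 1.27, beside 0.09. Without Control 3, 23 of 30 rose and 2 fell (IER3 and CCND1), against 16.4% and 15.4%, with a median of 1.05, beside -0.03. ICAM1, an adhesion molecule for leukocytes, had 1481, 1587 and 1572 normalized counts in Caba-780 libraries, against 238, 194 and 129 in Control libraries. TRAF1, an adaptor of tumour necrosis factor receptors, had 2898, 3119 and 3452 in Caba-780 libraries, against 196, 121 and 33.8 in Control libraries. In both genes the groups were far apart, with Control 3 lowest. ICAM1 rose by 3.09 ± 0.26 with 6 libraries (limma adjusted p = 0.0165) and by 2.84 ± 0.15 without Control 3. TRAF1 rose by 5.06 ± 0.61 with 6 libraries (limma adjusted p = 0.0332) and by 4.34 ± 0.17 without the low Control 3. PTX3, a secreted pattern-recognition protein, rose by 3.74 ± 0.28 with 6 libraries (limma adjusted p = 0.0156) and by 3.90 ± 0.22 without Control 3. CSF1, a macrophage growth factor, had 1071, 976 and 1071 normalized counts in Caba-780 libraries, against 123, 94.7 and 0 in Control libraries. It rose by 3.25 ± 0.16 without Control 3, while the value of 5.51 ± 1.79 with 6 libraries, which rests on the 0 in Control 3, missed the threshold (limma adjusted p = 0.215).

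The genes whose pattern over the 6 libraries was nearest to a member were found by the root mean square difference of centred log2 values, among 10239 genes with at least 100 normalized counts on average. For TNFAIP3 they were NR1D1 (0.181), LAMB3 (0.342) and PTX3 (0.434). For NFKB1 they were DPF3 (0.0649), TAF4B (0.106) and PPIF (0.114).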

How the data were processed

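RNA-seq of T24 cells was analysed from 1 deposited table. Fastp, HISAT2 2.0.5, featureCounts 1.5.0-p3 and DESeq2 1.20.0 on hg38 were used, per the submitters' processing notes; the strand setting is not given in the sources used. The deposited library columns hold a normalized signal, each read count over the size factor of its library; 100% of values were whole reads once it was removed (tolerance 1e-06). The deposited log2 fold changes, p-values and adjusted p-values are the authors' own comparison. Gene lengths (in bases) are as deposited, and the positions of all 10 members equalled those of GENCODE v29.

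Genes that reached 10 normalized counts in 3 or more libraries were tested with limma 3.58.1 (trend and robust moderation, R 4.3.3) on log2(value + 1), two-sided, with Benjamini-Hochberg adjustment over all genes; this pseudocount understates the change of low genes. All 10 members passed that filter. edgeR 4.0.16, DESeq2 1.42.0 and limma-voom on the recovered reads, other scalings, filters, pseudocounts and thresholds, a block and leaving out each library were alternatives. The scripts were tested on simulated data with the means and spread of the libraries other than Control 3. That test did not cover a library that stands apart as Control 3 does. Replicate pairs differed by more than sampling noise (chi-square per degree of freedom 9.10 to 191).

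The members and lists were chosen with earlier results of these data known. Named genes were the members, per list the 3 genes with the lowest p in each comparison, and the 3 nearest patterns of TNFAIP3 and NFKB1; single target genes beyond these are named as the calls of their list or as left out of its count. Protein sequences were not analysed here.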

Additional observations from a re-analysis of the deposited data

How the results depend on the processing

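With all 6 libraries, 3 of the 10 genes were called higher by limma. DESeq2 called 8 and limma-voom 5, with 5.42% and 0.888% of all genes called higher, beside 0.744% by limma. The replicate block and a threshold of 0.01 each left 0. The block called 0 of all genes by adjusted p, with 1563 at an unadjusted p under 0.05. For the threshold of 0.01 the share of all genes is not given here. The smallest limma adjusted p of the 10 genes was 0.0118, for TNFAIP3. Leaving out 1 library at a time gave 0 to 8: 8 without Control replicate 3, and 0 without any one of the other 5 libraries. Of all genes tested, 17.2% were called higher without Control replicate 3, and at most 0.00735% without any one other library. Whether replicate numbers pair the libraries was not settled. Same-numbered libraries had correlations of deviations of 0.303, -0.334 and -0.101. These cannot decide it, because Control 3 dominated the deviations of the Controls. Caba-780 1 had 0.303 and 0.265 with Controls 1 and 2, and -0.302 with Control 3. Without Control 3, the 8 calls stayed at 8 under the alternatives, except with library totals, which added RELA (adjusted p = 0.0381). No member was called lower under any of them. Over all pathway lists, the 6 higher calls were 5 without genes under the minimum in every Control library, a condition chosen after seeing the data. They became 18 (with 1 lower) under DESeq2, which called 5.42% of all genes higher and 3.51% lower, and 0 under the replicate block. Leaving out libraries gave 0 to 35 higher and 0 to 6 lower, with the most without Control replicate 3. That comparison called 17.2% of all genes tested higher and 15.2% lower. The 35 include 6 targets that reached the minimum in no Control library. Without these, 23 rather than 29 of the textbook targets rose. The difference in log2 ratio of NFKBIA to RELA ranged from -0.19 to 0.04 over libraries left out (0.0377 without Caba-780 replicate 1), and that of REL to RELA from -0.0056 to 1.16 (-0.0056 without Control replicate 2). The cause of these shifts was not tested. Scaling moved the median of all genes with 6 libraries between -0.01 (upper quartile) and 0.23 (library totals).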

Other observations

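The deposited table marks 9 genes as Rel homology domain factors, the 5 NF-kB subunits and 4 NFAT genes. NFATC1, a calcium-responsive factor, had 666, 631 and 576 normalized counts in Caba-780 libraries, against 432, 349 and 424 in Control libraries, and NFATC2 had 103, 154 and 136, against 105, 61.7 and 19.2. Neither passed limma with 6 libraries. Without Control 3, NFATC1 and NFATC2 each rose by 0.68 (limma adjusted p = 0.00143 and 0.0377), while NFATC3 had a log2 change of -0.10 and NFAT5 of 0.11.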
